A study of Homo sapiens with 24 samples.

Results

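The replication-dependent histone genes supply the histones that package newly made DNA. They were defined as the protein-coding genes of GENCODE release 44 whose symbol is H1-1 to H1-6 or starts with H2AC, H2BC, H3C or H4C followed by a number, and all 69 such genes were among the 54377 genes of the table. They comprise 6 H1, 17 H2A, 18 H2B, 13 H3 and 15 H4 genes. By position, 55 lie on chromosome 6, 11 in a cluster of chromosome 1 that holds H2BC21, 2 (H2AC25 and H2BC26) further along chromosome 1, and H4C16 alone lies on chromosome 12. The data are native elongating transcript sequencing (mNET-seq) libraries of wild-type U2OS cells, a human osteosarcoma line, in which RNA held by RNA polymerase II (Pol II) was precipitated with an antibody and sequenced. The antibodies recognised the Pol II C-terminal domain phosphorylated on tyrosine 1 (Y1P), serine 2 (S2P) or serine 5 (S5P). For each antibody, irradiated cells (IR, 10 Gy of ionizing radiation) were compared with nonirradiated cells (non-IR), with 2 replicate libraries in each of the 6 groups. The labels give 10 min and the Methods 30 min for the time after irradiation, and which applies is not known.

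These genes are switched on together as cells enter S phase. NPAT, a coactivator in the histone locus body, a nuclear body that forms at the gene clusters, drives their transcription. Their short transcripts lack introns and end, without a poly(A) tail, at a stem-loop that the stem-loop binding protein (SLBP) holds while the U7 small nuclear ribonucleoprotein directs the cleavage. H2A, H2B, H3 and H4 build the nucleosome core, and H1 is the linker histone that sits on the DNA where it enters and leaves the nucleosome.

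The canonical transcript of all 69 genes was a single exon, and a stem-loop was found after the stop codon of 68 of them, 23 to 68 bases downstream (median 36). H2AC15 had none in the 150 bases searched. The stem-loops of 5 genes whose counts are described below, 1 per class, are shown because the transcripts of these genes end at this element. The other histone genes were not searched for it. Each is read from the hg38 genome on the strand of the gene, 5′ to 3′, with the stem and its loop in capitals.
H1-4 (chr6:26157091-26157120, + strand): caaaGGCTCTTTTCAGAGCCacccaccgct
H2BC21 (chr1:149886178-149886207, - strand): caaaGGCTCTTTTCAGAGCCacccacctaa
H2AC20 (chr1:149887387-149887416, + strand): caaaGGCTCTTTTTAGAGCCacccaagttt
H3C1 (chr6:26020928-26020957, + strand): caaaGGCTCTTTTCAGAGCCaccacctttt
H4C2 (chr6:26026891-26026920, - strand): caatGGCCCTTTTCAGGGCCgcccactccc
The form of H1-4, H2BC21 and H3C1 was the commonest and occurred in 40 genes, that of H4C2 occurred in 10, and that of H2AC20 in no other member. The same forms thus recurred across classes.

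Their promoters differed more. Promoter windows of 300 bases, 250 before to 50 after the start site, were available from RefSeq (GRCh38.p14) for 64 of the 69 genes. The core of the TATA box, TATAAA on either strand, was present in 42 of 64 windows (65.6%), against 12% of 27305 windows of all genes. CCAAT occurred in 54 of 64 (84.4%), against 35.7% of all genes, and was found in every H1, H2A, H2B and H3 window but in 3 of 13 H4 windows. ATTTGCAT, the octamer read by POU2F1 (OCT1), occurred in 14 of 18 H2B and 11 of 16 H2A windows, against 1.80% of all genes. AAACACA, the H1 box, occurred in 6 of 6 H1 windows (5.76% of all genes), and GGTCCG, the core of the H4 element read by HINFP, in 12 of 13 H4 windows (11.2% of all genes). The windows of H1-4, H2BC21 and H4C2, which hold the H1 box, the octamer and the H4 element core, show the arrangement, with every match to these 5 motifs in capitals on either strand.
H1-4 (chr6:26156079-26156378, + strand): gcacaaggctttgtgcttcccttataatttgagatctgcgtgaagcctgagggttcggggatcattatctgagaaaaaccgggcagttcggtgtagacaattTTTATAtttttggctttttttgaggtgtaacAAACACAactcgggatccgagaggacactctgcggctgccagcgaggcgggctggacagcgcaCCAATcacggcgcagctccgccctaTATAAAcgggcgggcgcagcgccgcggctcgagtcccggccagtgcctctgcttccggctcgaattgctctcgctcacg
H2BC21 (chr1:149886633-149886932, - strand): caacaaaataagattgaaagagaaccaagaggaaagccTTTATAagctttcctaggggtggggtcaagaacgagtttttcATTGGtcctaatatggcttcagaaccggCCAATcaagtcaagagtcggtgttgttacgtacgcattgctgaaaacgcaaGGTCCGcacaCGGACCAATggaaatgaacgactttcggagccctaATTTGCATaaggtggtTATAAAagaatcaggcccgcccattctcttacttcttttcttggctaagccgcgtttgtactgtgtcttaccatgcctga
H4C2 (chr6:26027234-26027533, - strand): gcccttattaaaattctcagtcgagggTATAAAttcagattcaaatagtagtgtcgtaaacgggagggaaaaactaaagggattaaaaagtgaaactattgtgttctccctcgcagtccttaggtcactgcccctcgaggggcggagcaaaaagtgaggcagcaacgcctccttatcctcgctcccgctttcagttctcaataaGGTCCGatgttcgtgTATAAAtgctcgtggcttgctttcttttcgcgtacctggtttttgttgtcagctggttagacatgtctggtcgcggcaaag
The TATAAA nearest the start site began at base -29 in H1-4, -30 in H2BC21 and -31 in H4C2. Upstream of it lay CCAAT at -54 and AAACACA at -117 in H1-4, ATTTGCAT at -46 in H2BC21, and GGTCCG at -46 in H4C2. H2BC21 also held GGTCCG at -91 and, on the other strand, at -81, where it overlaps the CCAAT at -77. H2BC21 and H2AC20 are divergent neighbours, and their windows share 265 bases. Other H2A and H2B genes, such as H2BC11 and H2AC11, also stand as divergent neighbours. A match on either strand can then count in both classes, so the H2A and H2B counts are not separate. How many matches were shared was not counted. A match is a string of letters and was not tested as a binding site.

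The deposited values are counts of reads per gene body (GB), from 200 bp downstream of the TSS to the TES. The 12 libraries held 16220773 to 33144659 counts each. Histone genes took 0.0477 to 0.140% of them, 212346 counts in all. TMM scaling factors were 0.942 to 1.09 in 11 libraries and 0.835 in nonirradiated Y1P replicate 2. Of the osteoblast markers, RUNX2 averaged 575 CPM (counts scaled to a common library total), BGLAP was at 0 in every library and COL1A2 had 74 counts. The list summed to 692 to 933 CPM per library, against 13.6 to 22.1 CPM for 10 markers of other lineages. Of its 6 tested genes 1, ALPL, passed the test with irradiation (Y1P, log2FC 0.72), and its part in the results was not tested. Nothing in the labels says that replicates came from separate cultures, so p-values measure the spread between these libraries only. The paper speaks of biological replicates and of technical ones in numbers that differ from the 2 replicate numbers of 2 runs in the table, and how they relate is not known.

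Counts were unevenly spread over the 69 genes. H2BC21, H2BC11, H1-2, H2AC6 and H2BC5 held 46.7% of all histone counts, over gene bodies of 531 (H1-2) to 14772 bp (H2AC6). Of the 69 genes, 37 had enough counts to be tested, 25 had counts below the filter (1 to 63 counts summed over the 12 libraries) and 7 were at 0 in every library, where a count of 0 allows up to 3. The genes at 0 were H1-3, H2AC7, H2AC17, H2BC9, H3C4, H4C7 and H4C13. The tested genes comprised 3 of 6 H1, 9 of 17 H2A, 10 of 18 H2B, 5 of 13 H3 and 10 of 15 H4 genes. The tested genes held 57 (H4C3) to 30649 counts (H2BC21).

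**Figure D1:**
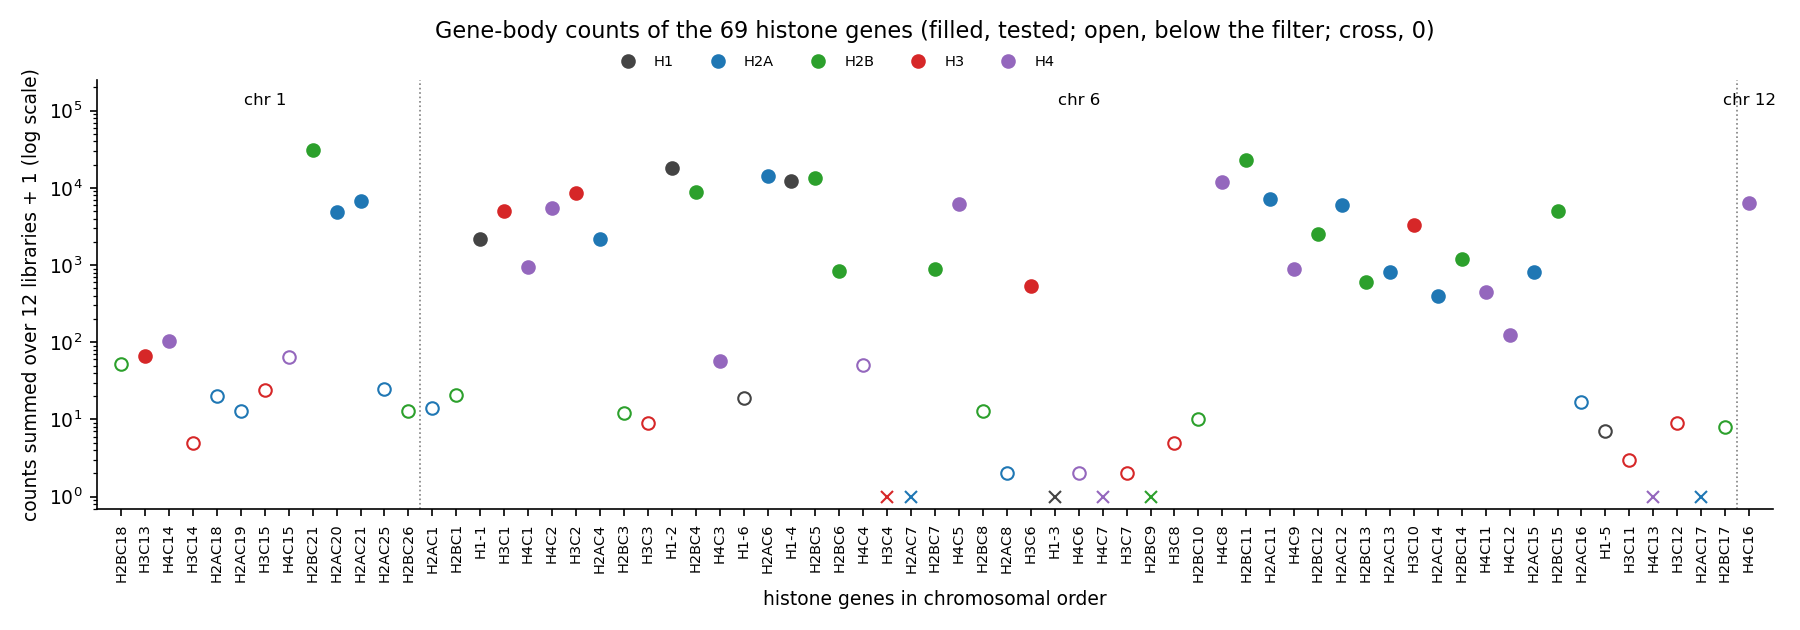
Counts summed over the 12 libraries plus 1 (y axis, log scale) for the 69 histone genes in chromosomal order (x axis), coloured by class, with filled symbols for the 37 tested genes, open symbols for the 25 below the filter and crosses for the 7 at 0. A run of genes with few or no counts, from H2BC8 to H2BC10, lies between H4C5 (6156 counts) and H4C8 (11806 counts).

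Many of the genes with few counts lay in runs. From H2BC8 to H2BC10 (chr6:26216200-26273412, 57.2 kb) stand 10 histone genes, of which 9 had 0 to 12 counts over the 12 libraries and 1, H3C6, had 531. In this run 9 of 10 genes had a gene body in which every 50-base window was unique in the genome, and the 1 other gene of the table there had 9 counts. H4C5 just before it had 6156 counts and H4C8 just after it had 11806. A second run, from H2AC16 to H2BC17 (chr6:27865317-27893891, 28.6 kb), held 7 genes with 0 to 16 counts. H2BC3 and H3C3, neighbours on chromosome 6, had 11 and 8 counts. The first run was thus low beside the H4 genes on either side of it. Per kb of gene body H4C5 and H4C8 had means of 2420 and 126 counts per library, against 14.4 in H3C6, the highest in that run. The other genes with few counts were not set beside their neighbours.

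The authors left out reads that overlapped several gene bodies or mapped to several places. The gene bodies of H3C4, H2AC7 and H1-6 lie wholly inside another annotated gene body of the same strand, and 72.5% of that of H2AC17 does. This overlap is in GENCODE release 44, the release behind the counts is not given, and H1-6 still had 18 counts. In 13 genes under 50% of the 50-base windows were unique, and 7 of these were tested: H3C13, H4C14, H2BC12, H2AC13, H2AC14, H4C11 and H4C12. Among the other genes at 0, H1-3, H2BC9, H4C7 and H4C13 had unique windows throughout and no such overlap. The part of shared sequence in the low counts was not tested otherwise.

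Per kb of gene body, H1-2 led the H1 genes with a mean of 133 CPM per kb over the 12 libraries, H4C2 and H4C5 the H4 genes with 115 each, H3C2 the H3 genes with 108, H2AC11 the H2A genes with 96.7 and H2BC21 the H2B genes with 60.6. H2AC21 led the larger cluster of chromosome 1 with 88.5 CPM per kb, and H4C16 on chromosome 12 had 8.58. H2BC26, the leading gene of the other group on chromosome 1, had 12 counts in all. These levels are counts over the annotated span, which ran from 186 to 597 bp of gene body in 51 genes and was 1 kb or more, up to 37410 bp (H2BC4), in 18. These 18 genes held 117855 of the 212346 histone counts. In H2BC21 the gene body runs on past the stem-loop (chr1:149886178-149886207 with flanks) to base 149884459. How many counts lay outside the short histone transcript was not measured, and values below for such long spans include them.

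The first question was whether irradiation changed Pol II on these genes. With Y1P, 15 of the 37 tested histone genes (40.5%) were higher in irradiated cells and 0 were lower. Called here means an adjusted p under 0.05 with a log2FC above 0.1 or below -0.1 (edgeR quasi-likelihood test, Benjamini-Hochberg over 21246 genes). Of all genes tested with Y1P, 4.38% were called higher and 4.28% lower, and of protein-coding genes (PCGs) 3.57% were called higher. The median log2FC of the histone genes was 0.51, against 0.02 for all genes, and 35 of 37 lay above 0. In bulk libraries, more cells transcribing these genes and more Pol II on them per cell cannot be told apart.

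Summed over the histone genes, the Y1P libraries held 881 and 1324 CPM in irradiated cells, against 675 and 931 CPM in nonirradiated cells. Both irradiated libraries were thus above the nonirradiated library of the same number, and irradiated replicate 1 lay below nonirradiated replicate 2. The ratio of irradiated to nonirradiated cells was 1.30 in the first pair and 1.42 in the second. In both pairs 31 of 37 histone genes were higher in irradiated cells, against 35.2% of all genes, and 0 were lower in both. In 17 genes both irradiated libraries exceeded both nonirradiated libraries, against 26.4% of all genes, and 11 of these were called.

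The smallest adjusted p were those of the linker histone genes H1-4 and H1-2. H1-4 (chr6:26156329-26157115) had 50.9 and 68 CPM in irradiated cells and 31.2 and 40.1 CPM in nonirradiated cells, and its log2FC was 0.73 ± 0.10 SE, adjusted p = 0.00528. H1-2 had 73.1 and 108 CPM in irradiated cells and 49.6 and 59.2 CPM in nonirradiated cells (log2FC 0.72 ± 0.10 SE, adjusted p = 0.00739). H1-1 had 7.31 and 17.7 CPM in irradiated cells and 6.27 and 8.16 CPM in nonirradiated cells (log2FC 0.70 ± 0.20 SE, adjusted p = 0.0482). In H1-4 and H1-2 the groups did not overlap, whereas irradiated replicate 1 of H1-1 was below nonirradiated replicate 2. These were the only H1 genes tested, and H1-1 was near the threshold and not called in DESeq2 or with a stricter filter.

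Of the 9 tested H2A genes, 4 rose, with a class median log2FC of 0.53. H2AC21 (chr1:149887469-149887965) had 31.2 and 45.2 CPM in irradiated cells and 20.9 and 26.4 CPM in nonirradiated cells (log2FC 0.68 ± 0.14 SE, adjusted p = 0.0227). Its neighbour H2AC20 had 23.6 and 34 CPM in irradiated cells and 16.7 and 23 CPM in nonirradiated cells (log2FC 0.53 ± 0.11 SE, adjusted p = 0.0236). H2AC11 on chromosome 6 had 34 and 41.2 CPM in irradiated cells and 20.3 and 32.7 CPM in nonirradiated cells (log2FC 0.53 ± 0.12 SE, adjusted p = 0.0241). In these 3 genes the groups stood apart. H2AC12 had 24 and 38.3 CPM in irradiated cells and 16.8 and 30.1 CPM in nonirradiated cells (log2FC 0.43 ± 0.12 SE, adjusted p = 0.0441), with the groups overlapping. H2AC6, the H2A gene with the most counts, did not pass the test (log2FC 0.12 ± 0.13 SE, adjusted p = 0.569).

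In H2B, 3 of 10 tested genes rose and the class median log2FC was 0.35. H2BC5 had 62.4 and 81 CPM in irradiated cells and 45.9 and 50.7 CPM in nonirradiated cells (log2FC 0.56 ± 0.11 SE, adjusted p = 0.0220). H2BC21 (chr1:149884459-149886682), the histone gene with the most counts, had 130 and 200 CPM in irradiated cells and 109 and 136 CPM in nonirradiated cells (log2FC 0.41 ± 0.10 SE, adjusted p = 0.0329). H2BC4 had 35.1 and 56.6 CPM in irradiated cells and 29.6 and 35 CPM in nonirradiated cells (log2FC 0.47 ± 0.13 SE, adjusted p = 0.0442). The groups stood apart in H2BC5, only just in H2BC4 (35.09 CPM irradiated against 34.98 CPM nonirradiated), and overlapped in H2BC21. H2BC6 and H2BC13 were the only tested histone genes with a log2FC below 0 (-0.07 in both), and neither passed the test.

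Among the genes of the nucleosome's H3-H4 pair, 1 of 5 H3 genes and 4 of 10 H4 genes rose, with class medians of 0.65 and 0.63. H3C1 (chr6:26020451-26020958) had 19.3 and 42.9 CPM in irradiated cells and 14.2 and 24.2 CPM in nonirradiated cells (log2FC 0.65 ± 0.13 SE, adjusted p = 0.0221), with the groups overlapping. H3C2, the H3 gene with the most counts per kb, had 35 and 53.4 CPM in irradiated cells and 26.4 and 44.6 CPM in nonirradiated cells and did not pass the test (log2FC 0.33 ± 0.10 SE, adjusted p = 0.0585). H3C13 had the highest log2FC of all tested histone genes, on 66 counts in the 12 libraries, and did not pass it either (log2FC 1.55 ± 0.64 SE, adjusted p = 0.131). Large estimates in these 2 classes thus did not always pass the test.

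H4C2 (chr6:26026896-26027283) had 24.8 and 36.9 CPM in irradiated cells and 16.5 and 21.7 CPM in nonirradiated cells (log2FC 0.68 ± 0.12 SE, adjusted p = 0.0177). H4C16 (chr12:14767999-14771131) had 29.4 and 48.7 CPM in irradiated cells and 21.9 and 22.1 CPM in nonirradiated cells (log2FC 0.79 ± 0.17 SE, adjusted p = 0.0227). It is the only member that stands outside the clusters. H4C5 had 27 and 37 CPM in irradiated cells and 17.8 and 25.1 CPM in nonirradiated cells (log2FC 0.58 ± 0.12 SE, adjusted p = 0.0227). H4C9 had 3.89 and 7.16 CPM in irradiated cells and 2.72 and 3.22 CPM in nonirradiated cells (log2FC 0.85 ± 0.25 SE, adjusted p = 0.0497). The groups stood apart in all 4 of these H4 genes. By cluster, 3 of 5 tested genes rose in the larger cluster of chromosome 1, 11 of 31 on chromosome 6 and the 1 on chromosome 12.

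**Figure D2:**
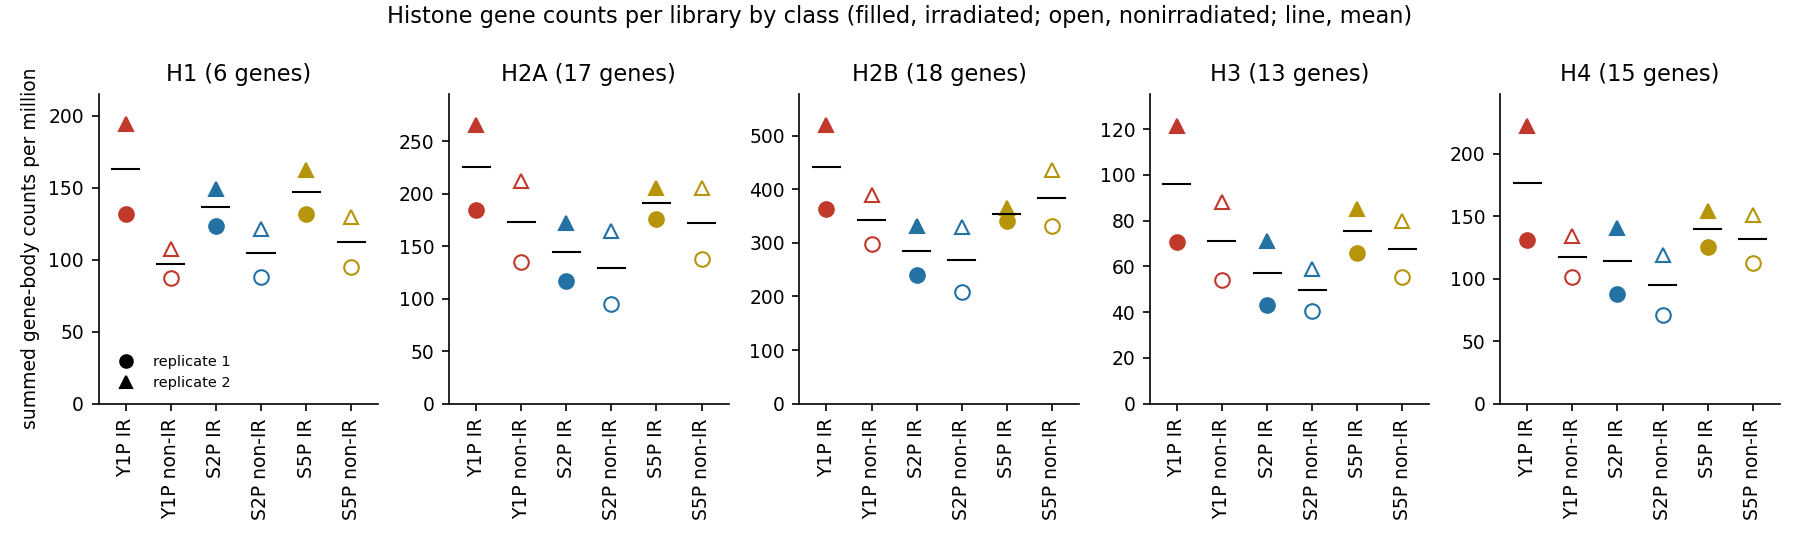
Summed CPM of each histone class (panels, y axis) in the 12 libraries (x axis, by antibody, irradiated filled and left of nonirradiated open), with a line at the mean of each group of 2. With Y1P the irradiated mean was the higher in each of the 5 classes, and irradiated replicate 1 lay below nonirradiated replicate 2 in all classes but H1.

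The calls with Y1P depended on the fit and on 1 pair of libraries. Without the replicate block 0 histone genes were called (0 higher and 2 lower among all genes), with a median log2FC of 0.51, and without Y1P replicate 2, 0 were called (2 higher and 7 lower among all genes), with a median of 0.48. With the trend of log2FC on gene length removed 1 was called and the median was 0.06. DESeq2 on the same libraries did not call H1-1, H2AC12 (adjusted p = 0.106) or H2BC4 (adjusted p = 0.067). It gave no adjusted p for H4C9. A stricter filter in edgeR lost H1-1 and H4C9.

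The trend on gene length was measured in all tested PCGs. In bins of rising length, the median log2FC with Y1P was 0.44 for the shortest (57 genes, median 636 bp), then 0.38, 0.24, 0.07, -0.10 and -0.16, and -0.18 for the longest (754 genes, median 464872 bp). Short genes as a group were thus higher in irradiated Y1P libraries, and most histone genes are short. Of the PCGs under 2 kb, 11.3% were called higher, with a median log2FC of 0.38. Of the histone genes under 2 kb, 11 of 26 (42.3%) were called higher and 0 lower (median 0.55), against 10 of the other 160 PCGs under 2 kb (6.25%), of which 12 were lower (median 0.31). Histone genes of 2 kb or more had 4 of 11 called higher and a median of 0.32. The part of length in the histone calls was not tested beyond removing the trend.

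**Figure D3:**
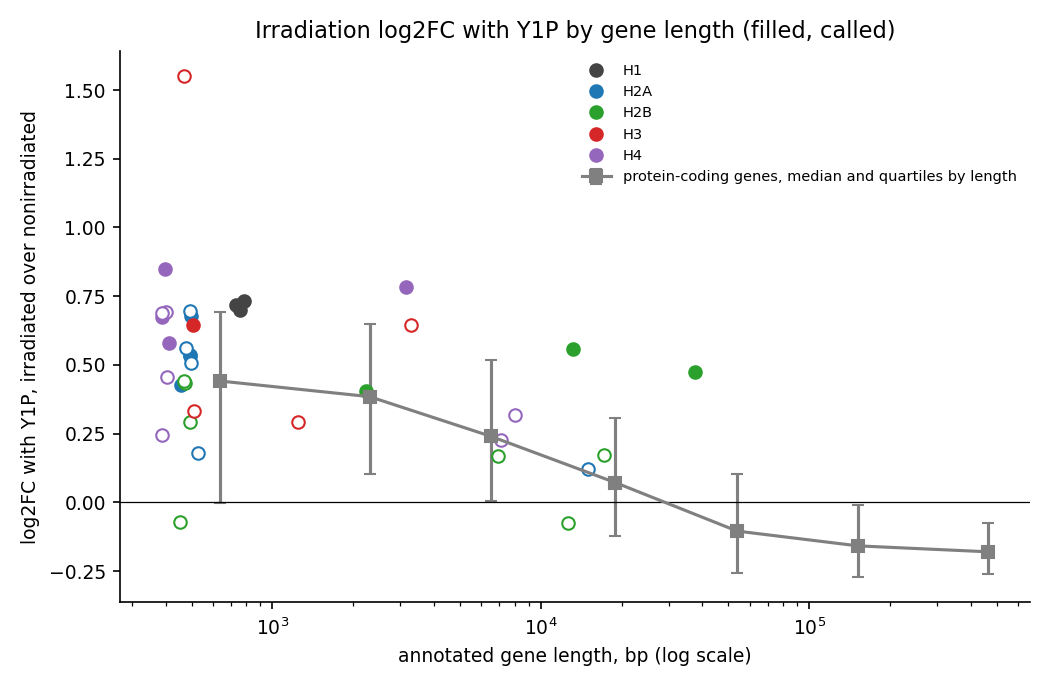
Irradiation log2FC with Y1P (y axis) against annotated gene length in bp (x axis, log scale) for the 37 tested histone genes (points by class, filled where called), with the median and quartiles of all tested PCGs in 7 length bins. The medians fall with length, to -0.18 in the longest bin against 0.44 in the shortest, and most histone genes under 1 kb lie above 0.

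With S2P, the form of Pol II that predominates further into genes, 0 of the 37 histone genes passed the test in either direction. edgeR called 0.0141% of all genes higher and 0.0847% lower. At an unadjusted p under 0.05 there were 11 histone genes (17.7% of all genes), and DESeq2 on the same libraries called 0. The median log2FC was 0.24, and 22 of 37 were higher in irradiated cells in both pairs, against 33.5% of all genes. For PCGs under 2 kb other than histone genes the median was 0.19. With the length trend removed that of the histone genes was -0.002. Summed over the histone genes, the S2P libraries held 611 and 864 CPM in irradiated cells, against 502 and 793 CPM in nonirradiated cells. The spread between replicates in S2P was larger than the difference between the groups. With the repeat runs entered as 4 replicates, as in the Methods, DESeq2 called 13 of 33 higher, on runs that are not independent libraries. Over all genes that fit called 1387 higher and 2887 lower.

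H1-2 came nearest with S2P, at 72.8 and 81 CPM in irradiated cells and 50.4 and 65.2 CPM in nonirradiated cells (log2FC 0.42 ± 0.10 SE, adjusted p = 0.143). H1-4 followed, with 45 and 57.6 CPM in irradiated cells and 32.8 and 49.1 CPM in nonirradiated cells (log2FC 0.34 ± 0.10 SE, adjusted p = 0.156). H2BC21 had 79.9 and 114 CPM in irradiated cells and 66.6 and 108 CPM in nonirradiated cells (log2FC 0.17 ± 0.10 SE, adjusted p = 0.400). In H1-2 and H3C6 alone, 2 of 37 genes, both irradiated libraries exceeded both nonirradiated libraries, against 22.8% of all genes. H1 had the highest class median (0.40) and H2B the lowest (-0.06).

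With S5P, the form that predominates near promoters, 0 of 37 passed the test as well, against 0.00941% of all genes called higher and 0.0424% lower. There were 9 histone genes at an unadjusted p under 0.05 (11.6% of all genes), and DESeq2 on the same libraries called 0. The median log2FC was 0.15, and 17 of 37 were higher in both pairs, against 31.7% of all genes. For PCGs under 2 kb other than histone genes the median was 0.19. With the length trend removed that of the histone genes was 0.005. Summed over the histone genes, the S5P libraries held 840 and 972 CPM in irradiated cells, against 732 and 1001 CPM in nonirradiated cells. The first pair was thus higher in irradiated cells and the second was not. With runs as 4 replicates DESeq2 called 9 of 33 higher and 1 lower, and over all genes 1215 higher and 1618 lower.

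H1-4 again came nearest with S5P, at 49.4 and 64.4 CPM in irradiated cells and 33 and 49.1 CPM in nonirradiated cells (log2FC 0.48 ± 0.10 SE, adjusted p = 0.136), its groups just apart. H1-2 had 74.7 and 84.4 CPM in irradiated cells and 55.8 and 72.7 CPM in nonirradiated cells (log2FC 0.32 ± 0.10 SE, adjusted p = 0.314). H2BC21 had 122 and 126 CPM in irradiated cells and 122 and 157 CPM in nonirradiated cells (log2FC -0.16 ± 0.10 SE, adjusted p = 0.545), with no difference called. The groups stood apart in 5 genes (H1-2, H1-4, H3C13, H4C5 and H4C16), against 21.6% of all genes. The class medians ran from 0.48 in H1 to -0.04 in H2B.

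**Figure D4:**
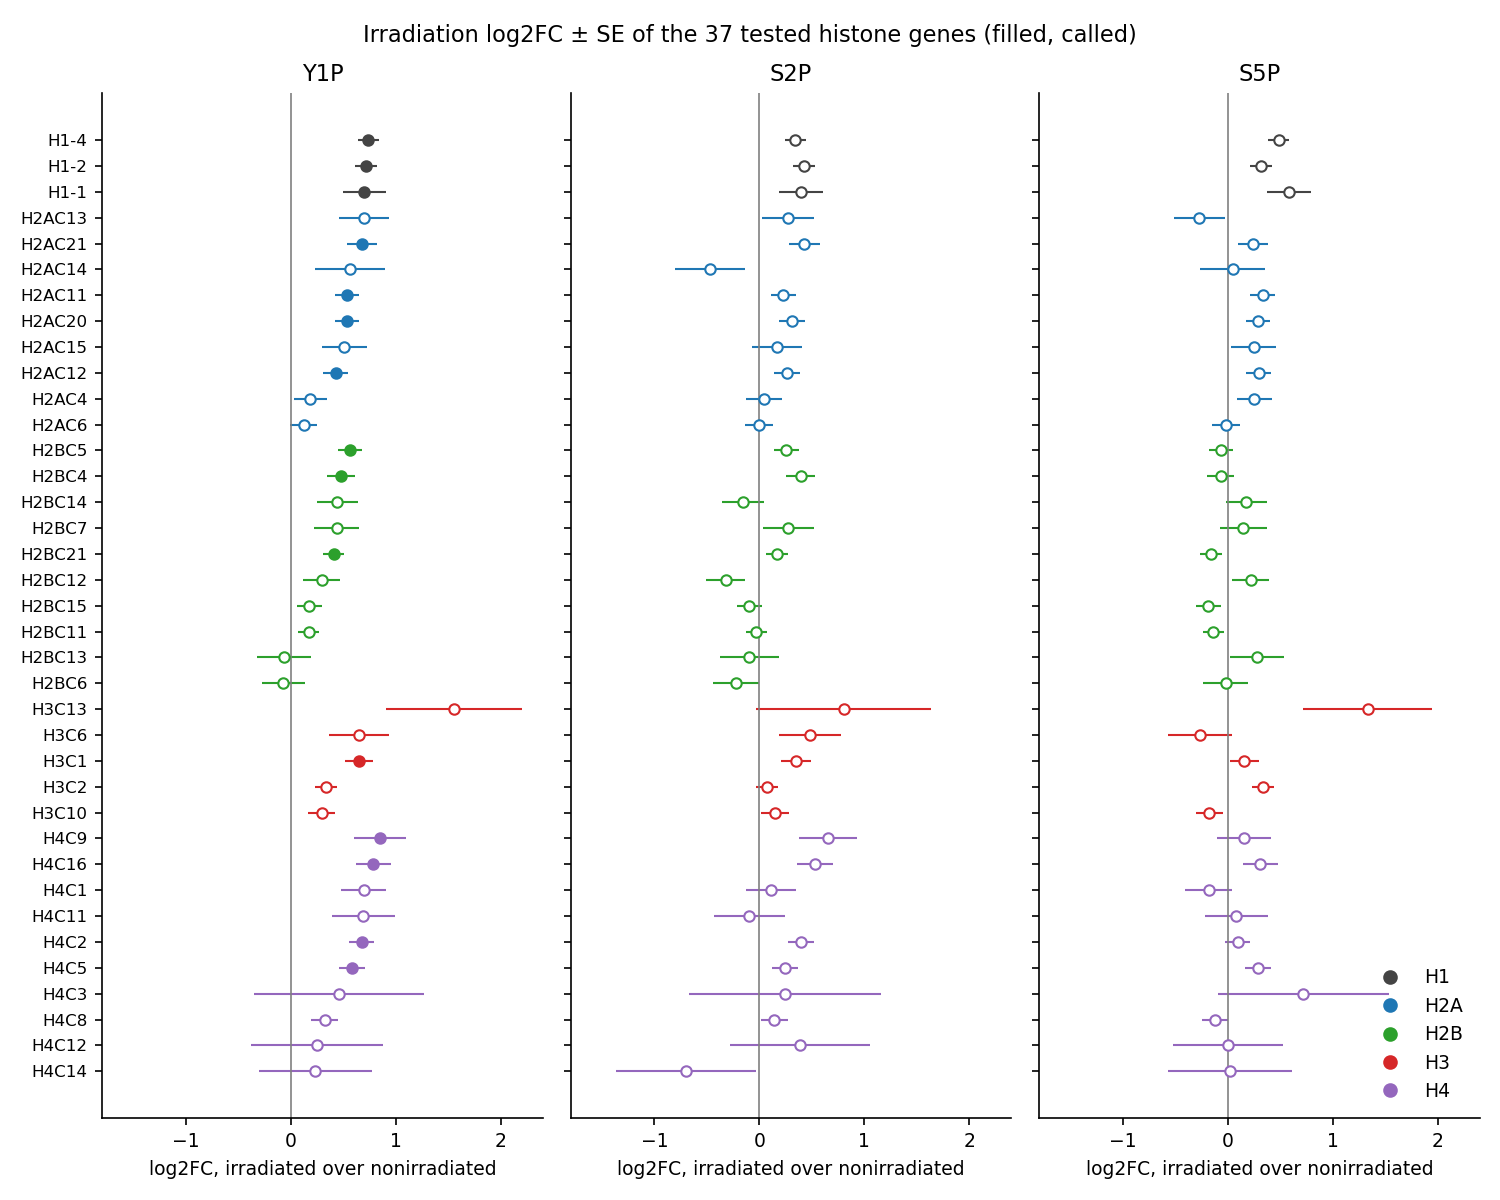
Irradiation log2FC with its SE (x axis, irradiated over nonirradiated) of the 37 tested histone genes (rows) with Y1P, S2P and S5P (panels), filled where called. With Y1P 35 of 37 lie above 0 and 15 are filled, while none is filled with S2P or S5P.

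Whether the response differed between antibodies was tested as an interaction. The median difference of log2FC in histone genes was -0.26 for S2P minus Y1P, -0.29 for S5P minus Y1P and -0.02 for S5P minus S2P. No histone gene passed the edgeR test in any of the 3, at an adjusted p of 0.666 or more. Of all genes, 0.00% were called for S2P against Y1P and for S5P against Y1P, and 0.00471% for S5P against S2P. At an unadjusted p under 0.05 there were 3 histone genes for S2P against Y1P (3.11% of all genes), 13 of 37 for S5P against Y1P (7.38% of all genes) and 2 for S5P against S2P (4.33% of all genes). At the adjusted p no difference in response between antibodies was called, which does not show that the responses were alike.

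Comparing antibodies asks which form of Pol II is found on these genes. In irradiated cells, S2P was below Y1P in all 37 tested histone genes under TMM scaling, with log2FC of -1.46 to -0.21 and a median of -0.67, against -0.05 for all genes and -0.43 for PCGs under 2 kb. At a log2FC beyond 1 in either direction 2 passed, against 3.51% of all genes called lower. H2AC4 had 3.98 and 8.50 CPM with S2P and 9.35 and 14.7 CPM with Y1P (log2FC -1.01 ± 0.17 SE, adjusted p = 0.000302). H4C11, in which 19.3% of windows were unique, had 0.525 and 2.02 CPM with S2P and 1.14 and 4.38 CPM with Y1P (log2FC -1.14 ± 0.32 SE, adjusted p = 0.0128). At the adjusted p alone, 27 of 37 were lower and 0 higher, against 12.6% of all genes lower and 54 of 186 PCGs under 2 kb. Those 186 PCGs, also behind the median of -0.43, include the 26 tested histone genes under 2 kb, so the 2 sets are not separate. These 27 became 0 without the replicate block (median log2FC -0.69), 10 without S2P replicate 1 (-0.55), 17 without Y1P replicate 2 (-0.63) and 5 with the length trend removed (-0.13). The 2 became 0 without the block, without S2P replicate 1 or with the length trend removed.

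The difference was smallest in the linker histone genes H1-4 and H1-2. H1-4 had 45 and 57.6 CPM with S2P and 50.9 and 68 CPM with Y1P (log2FC -0.21 ± 0.09 SE, adjusted p = 0.102). H1-2 had 72.8 and 81 CPM with S2P and 73.1 and 108 CPM with Y1P (log2FC -0.22 ± 0.10 SE, adjusted p = 0.105). The third, H1-1, had 5.64 and 10.4 CPM with S2P and 7.31 and 17.7 CPM with Y1P (log2FC -0.62 ± 0.17 SE, adjusted p = 0.0135), a value within the range of the core histone genes. H2BC21 had 79.9 and 114 CPM with S2P and 130 and 200 CPM with Y1P (log2FC -0.76 ± 0.11 SE, adjusted p = 8.52e-05). H3C2 had 21.2 and 33.2 CPM with S2P and 35 and 53.4 CPM with Y1P (log2FC -0.71 ± 0.10 SE, adjusted p = 7.93e-05), both of its S2P libraries below both Y1P libraries. How well each antibody precipitated was not measured, so only differences relative to all genes can be read.

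In nonirradiated cells the same comparison called 0 of 37 beyond a log2FC of 1 in edgeR, against 1.02% of all genes lower, with 18 histone genes at an unadjusted p under 0.05 (24.5% of all genes) and 0 called in DESeq2. The median log2FC was -0.39, against -0.04 for all genes and -0.26 for PCGs under 2 kb. With the length trend removed that of the histone genes was -0.08. At the adjusted p alone 10 of 37 were lower and 0 higher, against 3.02% of all genes lower and 19 of 186 PCGs under 2 kb. Here too the 186 PCGs, also behind the median of -0.26, include the 26 tested histone genes under 2 kb. H2AC4 had 4.71 and 6.88 CPM with S2P and 7.67 and 13.8 CPM with Y1P (log2FC -0.87 ± 0.18 SE, adjusted p = 0.00664). H1-4 lay on the other side of 0 (log2FC 0.18 ± 0.09 SE, adjusted p = 0.234). S2P lay below Y1P in 34 of 37 genes here. The 2 comparisons share no libraries but come from 1 fit with a shared replicate block, so they are not independent tests.

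**Figure D5:**
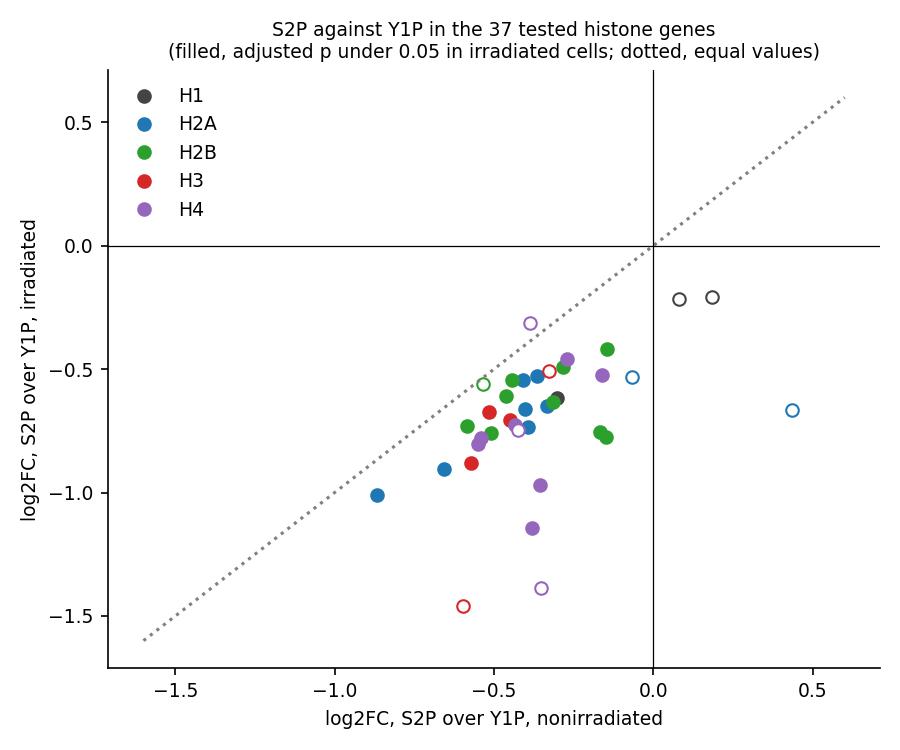
Log2FC of S2P over Y1P in irradiated cells (y axis) against nonirradiated cells (x axis) for the 37 tested histone genes, coloured by class and filled where the adjusted p in irradiated cells was under 0.05, with a dotted line at equal values. All points lie below 0 on the y axis, 27 of them filled, and H1-4 and H1-2 lie nearest to 0 on that axis.

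S5P was then set against Y1P and against S2P. Beyond a log2FC of 1, 0 of 37 histone genes were called in irradiated cells (0.249% of all genes lower) and 0 in nonirradiated cells (0.00% of all genes). Median log2FC of S5P over Y1P were -0.24 with irradiation and 0.09 without. At an unadjusted p under 0.05 there were 15 with irradiation (18.3% of all genes) and 2 without (6.69%), and DESeq2 called 0 in both. At the adjusted p alone 1 histone gene was lower in irradiated cells, against 1.04% of all genes. It was H3C1, with 17.2 and 24.7 CPM with S5P and 19.3 and 42.9 CPM with Y1P (log2FC -0.51 ± 0.13 SE, adjusted p = 0.0343). Over S2P the medians were 0.39 in irradiated and 0.45 in nonirradiated cells, and 0 histone genes passed the fold threshold in either (0.0282% and 0.00% of all genes higher), with 23 in irradiated cells (13.9% of all genes) and 21 in nonirradiated cells (18.2%) at an unadjusted p under 0.05 and 0 in DESeq2. H3C2 in irradiated cells was the only histone gene higher at the adjusted p alone (0.108% of all genes). It had 34 and 43.5 CPM with S5P and 21.2 and 33.2 CPM with S2P (log2FC 0.53 ± 0.10 SE, adjusted p = 0.0345).

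A difference between replicates ran through all 6 groups. The summed CPM of replicate 2 was 1.16 to 1.58 times that of replicate 1, the least in irradiated S5P and the most in nonirradiated S2P. Replicate 2 was the higher in 32 to 37 of the 37 histone genes per group, against 47.5 to 55.5% of all genes. In 27 of 37 it was the higher in all 6 groups, against 10.8% of all genes. The largest irradiation ratio of the sums was 1.42 (Y1P, second pair), below the ratio between replicates in 2 of the 6 groups. What sets the replicates apart is not given in the labels.

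Genes that act on this pathway were read in the same fits. Of 24 factors of histone transcription and 3′ end processing, all tested, 1 was higher and 3 lower with Y1P, against 4.38% and 4.28% of all genes, with a median log2FC of -0.10. At an unadjusted p under 0.05 there were 12, against 28.8% of all genes. E2F1, an activator of S-phase genes, had 37.7 and 46.1 CPM in irradiated cells and 30.9 and 26.2 CPM in nonirradiated cells (log2FC 0.55 ± 0.14 SE, adjusted p = 0.0319). NCBP1, a subunit of the cap-binding complex, had 71.9 and 67.1 CPM in irradiated cells and 88.4 and 88.4 CPM in nonirradiated cells (log2FC -0.35 ± 0.08 SE, adjusted p = 0.0306). POU2F1 (OCT1), which reads the octamer, had 217 and 195 CPM in irradiated cells and 266 and 253 CPM in nonirradiated cells (log2FC -0.33 ± 0.09 SE, adjusted p = 0.0348). TUT4, a terminal uridyltransferase, had 174 and 172 CPM in irradiated cells and 196 and 234 CPM in nonirradiated cells (log2FC -0.31 ± 0.09 SE, adjusted p = 0.0475). NPAT (log2FC -0.30 ± 0.10 SE, adjusted p = 0.0819) and SLBP (log2FC 0.01 ± 0.13 SE, adjusted p = 0.975) did not pass the test. The 3 lower genes are annotated at 40081 (NCBP1), 206470 (POU2F1) and 145206 bp (TUT4), and E2F1 at 10909 bp. The median log2FC of PCGs with Y1P fell with length, as given above. The part of length in these calls was not tested.

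Among 12 replication-independent histone variant genes, of which 11 were tested, 3 were higher with Y1P (4.38% of all genes) and 0 lower (median log2FC 0.20). H3-3B, which encodes the H3.3 variant, had 112 and 146 CPM in irradiated cells and 77 and 87.8 CPM in nonirradiated cells (log2FC 0.63 ± 0.10 SE, adjusted p = 0.00972). H1-10, a linker histone, had 50.5 and 56 CPM in irradiated cells and 35.5 and 33.5 CPM in nonirradiated cells (log2FC 0.62 ± 0.12 SE, adjusted p = 0.0198). H2AJ had 2.28 and 2.97 CPM in irradiated cells and 1.23 and 0.976 CPM in nonirradiated cells (log2FC 1.22 ± 0.29 SE, adjusted p = 0.0298). H3-3B is annotated at 9460 bp, H1-10 at 1516 bp and H2AJ at 3598 bp. Tested PCGs in the length bins of median 2302 and 6498 bp had median log2FC of 0.38 and 0.24 with Y1P. The part of length in these 3 calls was not tested. Without the replicate block 0 of all genes were called higher with Y1P. Whether the variant genes and the replication-dependent genes rose together was not tested. Of 13 histone chaperone genes 0 were higher and 1 lower (4.28% of all genes; median -0.11), which was ATRX, a chromatin remodeller that deposits H3.3 with DAXX, at 188 and 172 CPM in irradiated cells and 227 and 230 CPM in nonirradiated cells (log2FC -0.34 ± 0.09 SE, adjusted p = 0.0330). ATRX is annotated at 281354 bp, and the part of length in its call was not tested either. Scaled by library totals alone, NCBP1, POU2F1, TUT4 and ATRX no longer passed (log2FC -0.15 to -0.11). DESeq2 gave no adjusted p for H2AJ or ALPL. With S2P and S5P 0 genes of the 3 lists, with 24, 11 and 13 tested genes, were called by edgeR. At an unadjusted p under 0.05 there were 11 with S2P (17.7% of all genes) and 5 with S5P (11.6% of all genes).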

How the data were processed

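mNET-seq of U2OS cells was analysed from the raw counts per gene body that the authors deposited. Per the Methods, reads were trimmed with cutadapt, aligned with STAR to hg38, kept where uniquely mapped, cleared of PCR duplicates and internal priming, and counted on the gene's strand with featureCounts. The submitters' notes list cutadapt 1.8.3, and the annotation release is not given in the sources used here. Uniquely mapped reads undercount genes with near-identical copies, and short spans leave few bases after the first 200 bp.

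The table had 24 runs, 2 per library, which were summed. 1022 repeated entries without counts were left out, and 120 IDs were not in GENCODE release 44. Genes were kept by filterByExpr, scaled by TMM and fitted with edgeR 4.0.16 (R 4.3.3, limma 3.58.1) by quasi-likelihood, with replicate number within antibody as a block for irradiation (as the Methods use the technical replicate as batch) and a shared block between antibodies. SE is the log2FC over the square root of F. Adjusted p values are Benjamini-Hochberg over 21246 genes. Calls needed an adjusted p under 0.05 and a log2FC beyond 0.1 (irradiation) or 1 (antibodies). CPM are TMM-scaled. The fit was tested on simulated data. Alternatives were DESeq2 1.42.0, totals alone, other filters, no block, a length trend removed and each replicate left out. Tables were made in Python 3.11.15 with pandas 2.3.3.

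The members and gene lists were chosen with earlier results of these data known. Named were the called members with irradiation (up to 4 per class by p), the highest per kb of each class and cluster, for each antibody comparison up to 4 called members with a mean of at least 50 counts, and called list genes (up to 4 per list). Other members named were chosen after their values were seen.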

Additional observations from a re-analysis of the deposited data

How the results depend on the processing

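With Y1P the 15 called histone genes became 0 without the replicate block, 0 without Y1P replicate 2 (0 to 15 over the left-out replicates), 1 with the length trend removed (H2BC4) and 0 with that trend taken on canonical transcript spans, an alternative chosen after seeing the data. DESeq2 called 11, library totals alone 16, a shared block 17, no filter 17, a stricter filter 14, and DESeq2 on runs as 4 replicates 21, all higher. Removing the length trend turned H2BC21 (log2FC -0.017) and H2AC12 (-0.051) below 0, likewise on canonical spans (-0.0090 and -0.015). Totals alone moved the median of all genes to 0.21 with Y1P (0.02 with TMM) and to 0.19 with S2P (0.02), and the split of all Y1P calls to 1188 higher and 49 lower, against 931 and 909. All Y1P calls, higher and lower, numbered 0 and 2 without the block, 1638 and 1741 with a shared block, 227 and 946 in DESeq2, 1589 and 1205 with no filter, 938 and 436 with a stricter one, 314 and 591 with the length trend removed, 294 and 539 on canonical spans, 2693 and 4120 on runs, 1401 and 1755 without replicate 1, and 2 and 7 without replicate 2. With S2P the 0 calls became 1 with a shared block, 2 with no filter and 13 in DESeq2 on runs. With S5P they became 1, 1 and 10 (9 higher, 1 lower). Over all genes, higher and lower, these 3 fits called 93 and 154, 344 and 303, and 1387 and 2887 with S2P. With S5P they called 32 and 31, 158 and 108, and 1215 and 1618. For S2P against Y1P in irradiated cells, 2 became 0 without the block, 1 in DESeq2, 1 with totals alone, 0 with the length trend removed and 0 to 4 over the left-out replicates (0 without S2P replicate 1, 1 without Y1P replicate 2, 4 without either other). The 27 at the adjusted p alone, a count added after seeing the data, became 0 without the block, 5 with the length trend removed and 10 to 25 over the left-out replicates (10 without S2P replicate 1, 17 without Y1P replicate 2). In nonirradiated cells the 0 calls of that pair became 1 without Y1P replicate 1 (range 0 to 1), and the 0 for S5P against S2P in irradiated cells 1 without S2P replicate 2 (0 to 1). The differences of the irradiation effect stayed at 0 histone genes in every fit run. The cause of these changes was not tested. Differences between replicates correlated at 0.168 to 0.392 over the 15 pairs of groups, 0.168 within Y1P, 0.282 within S2P and 0.246 within S5P, and nothing in the labels says what the number pairs. Repeat runs of a library agreed near counting noise (chi-square per degree of freedom 1.06 to 1.10, against 10.0 to 70.2 between replicates). With 2 libraries per group and 3 residual degrees of freedom, small changes were not detectable in genes of few counts.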
